A study of Mus musculus with 21 samples.

Results

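Rhabdomyosarcoma (RMS) tumors of mice were compared here for 40 listed genes of G2 phase and mitosis, the genes that build the spindle, hold chromosomes to it and divide the cell. The members were chosen by name, from G2 regulators, mitotic kinases, kinetochore proteins and spindle proteins. Their values did not enter the rule, but earlier results of these data were known when it was made. Of the 40 genes, 38 were measured, each by 1 probe set, among 19505 genes with a symbol. Foxm1, a transcription factor of G2 genes, and Ccnb1, the cyclin B1 gene, were not analysed here. RNA came from 14 tumors of Neu1+/−/Ptch1+/−/ETV7 TG+/− mice (NPE) and 7 tumors of Ptch1+/−/ETV7 TG+/− mice (PE), with 1 Clariom S Mouse array per tumor. Both genotypes thus carried a Ptch1 deletion on 1 allele and the ETV7 transgene, and they differed by the loss of 1 Neu1 allele. Neu1 encodes a lysosomal sialidase, and Ptch1 encodes the receptor that holds the hedgehog pathway in check. The mice, from a cross of FVB/NJ mice into a mixed background, were of both sexes, and they were killed when moribund or when a tumor was large, so age was not matched. Tumors grew in the trunk or limb, and the labels do not give the site, sex or age behind each array.

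Cells that divide switch these genes on together. Transcription of the set begins late in S phase and peaks in G2 and mitosis, through repressor and activator complexes of the DREAM, B-Myb and FoxM1 family that bind a pair of short promoter elements, the cell cycle genes homology region (CHR) and the CCAAT box of NF-Y. Resting cells keep the set low, so in a bulk tumor its RNA follows the share of dividing cells. In muscle development, precursor cells that leave the cycle and mature into fibers lower these genes and raise those of the contractile apparatus. In bulk RNA, fewer cells of a type and less RNA per cell cannot be told apart.

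The paired elements are shown first because they bear on how genes of this kind are switched on and played no part in choosing the members. RefSeq windows on GRCm38.p6, from 250 bases before to 50 bases after the start of transcription, were found for 31 of the 38 measured members, with 33 windows in all. CHR, searched as TTTGAA on both strands, was found in 23 of 31 members (74.2%), against 20.2% of 27025 genes. CCAAT on either strand was found in 22 of 31 members (71.0%), against 41.1% of genes. Both were found together in 20 members (64.5%), against 7.97% of genes. An E2F site, searched as TTTGGCGC, TTTCCCGC, TTTGCCGC or TTTCGCGC on both strands, was found in 1 member, Cdk1 (3.23%), against 2.61% of genes. Taken by window, the shares for all 32851 windows of this length were 17.9% for CHR, 37.4% for CCAAT and 2.26% for E2F. Such a match is a string of letters and not a bound site.

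Some of the elements sat close to the start of transcription, in windows that were short to begin with. Counting the first transcribed base as 1 and the base before it as -1, a CHR between positions -40 and 10 was found in 10 of 31 members (32.3%) and in 2.90% of genes, and a CCAAT between positions -110 and -30 in 15 members (48.4%) and in 19.2% of genes. In the stretch from position -110 to 10, 10 members held both. The sequences of 6 of these are given with CHR (TTTGAA, or TTCAAA on the other strand) and the CCAAT box (or ATTGG) in capitals, chosen as 1 or more from the cyclins, the kinase Cdk1, topoisomerase, the anaphase genes and the motors. They lie at chr10:69352903-69353022 on the minus strand (Cdk1), chr9:70421545-70421664 on the minus strand (Ccnb2), chr11:99024180-99024299 on the minus strand (Top2a), chr2:164769819-164769938 on the plus strand (Ube2c), chr4:118437334-118437453 on the minus strand (Cdc20) and chr19:37376272-37376391 on the plus strand (Kif11), each written 5′ to 3′ along its own gene.
Cdk1: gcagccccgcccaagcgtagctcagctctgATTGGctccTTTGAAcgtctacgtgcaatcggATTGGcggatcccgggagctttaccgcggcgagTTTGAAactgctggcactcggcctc
Ccnb2: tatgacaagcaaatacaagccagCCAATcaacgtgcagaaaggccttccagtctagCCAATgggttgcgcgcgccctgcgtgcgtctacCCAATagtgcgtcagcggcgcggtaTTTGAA
Top2a: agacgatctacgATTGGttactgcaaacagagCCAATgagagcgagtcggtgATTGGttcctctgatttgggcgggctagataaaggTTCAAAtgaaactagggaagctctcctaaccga
Ube2c: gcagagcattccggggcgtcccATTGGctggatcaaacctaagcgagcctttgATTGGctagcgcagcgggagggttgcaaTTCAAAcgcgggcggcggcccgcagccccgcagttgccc
Cdc20: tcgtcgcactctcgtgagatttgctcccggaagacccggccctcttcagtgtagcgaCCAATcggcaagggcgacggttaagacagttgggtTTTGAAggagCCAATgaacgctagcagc
Kif11: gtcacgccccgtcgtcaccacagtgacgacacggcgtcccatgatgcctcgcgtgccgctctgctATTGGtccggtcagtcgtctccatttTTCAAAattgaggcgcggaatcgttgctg
In Cdk1 a CHR began at position -71 and another at -15, and CCAAT boxes began at -80 and -48. In Ube2c a CHR began at position -29, and CCAAT boxes began at -88 and -57. Ccnb2 and Top2a each had 3 CCAAT boxes in this stretch. Espl1, Cenpf, Kif23 and Prc1 were the other members with both elements there. The 8 members with a window but no CHR in it were Plk4, Melk, Bub1, Mad2l1, Cenpe, Nuf2, Birc5 and Nusap1. The log2 fold changes between genotypes, given below, had a median of -0.55 over the 23 members with CHR and -0.45 over the 8 without, a description with no test.

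All values that follow are log2 signals, so 1 unit is a doubling, and each difference is NPE minus PE. The arrays had close medians, 5.32 to 5.41 over all probe sets tested, and background probes had medians of 2.64 to 3.18. Of the 38 members, 22 were more than 1 log2 unit above their array's background median in every tumor. The others, Cdk1, Bub1, Bub1b, Cenpe and Kif2c among them, were closer to it in some tumors. Neu1 itself, the gene that separates the genotypes, was 6.36 ± 0.18 (SD, n = 14) in NPE and 6.62 ± 0.19 (SD, n = 7) in PE tumors, with a log2 fold change of -0.27 (standard error 0.090, limma adjusted p = 0.513, exact permutation p = 0.00561). Ptch1 was 8.26 ± 0.65 and 8.05 ± 0.23. Myog, the gene of myogenin and a defining marker of RMS, lay between 9.68 and 9.97 in all 7 PE tumors and between 7.77 and 9.96 in 13 of 14 NPE tumors. It was 6.08 in NPE tumor 3, which was also lowest for Myod1 (6.49), Des (9.27) and Myh3 (6.53) and stands apart in what follows. Of the tumors, NPE 11 and 12 (r = 0.71), PE 6 and 7 (r = 0.68), NPE 1 and 2 (r = 0.50) and NPE 7 and 8 (r = 0.47) were most alike over all probe sets after each was centred on its mean. The labels do not say whether such pairs came from 1 mouse.

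The 38 genes moved through the tumors as 1 block. Among their 703 pairs, every correlation over the 21 tumors was above 0, with a median r of 0.85, and 675 pairs had an r of at least 0.5. The median r over all pairs of the 19505 genes was 0.0017. The closest pair was Pbk and Cenpa (r = 0.98), a mitotic kinase gene and the histone H3 variant of the centromere, and the loosest was Espl1 and Cenpf (r = 0.32). Within NPE tumors alone the median r was also 0.85, and within PE tumors it was 0.87. A member correlated with the mean of the other members at a median r of 0.93, and 35 of 38 did so at 0.8 or more. Espl1, the gene of separase, had the lowest value (r = 0.48), followed by Cdca8 (0.73) and Birc5 (0.76). All these correlations share the same arrays and are given as a description.

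The mean of the members, each centred on its own mean over the 21 tumors, was taken to describe each tumor. It spread over more than 2 log2 units. It was lowest in NPE tumors 2 (-1.25), 1 (-1.20) and 9 (-1.06), followed by NPE tumors 6 (-0.66) and 10 (-0.39). NPE tumors 7 (-0.14) and 4 (-0.05) lay near the middle. The remaining NPE tumors other than NPE 3 lay in a narrow band, from 0.18 in NPE 12 to 0.29 in NPE 8. NPE tumor 3 had the highest mean of all, 1.01. PE tumors ran from -0.31 (PE 1) and -0.21 (PE 2) through 0.21 (PE 3), 0.35 (PE 5) and 0.61 (PE 4) to 0.72 (PE 7) and 0.99 (PE 6). The group means were -0.17 ± 0.66 (SD, n = 14) in NPE and 0.34 ± 0.48 (SD, n = 7) in PE tumors. Of the 14 NPE tumors, 5 lay below every PE tumor and 13 below the PE median, and 1 lay above every PE tumor, so the groups overlapped.

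**Figure D1:**
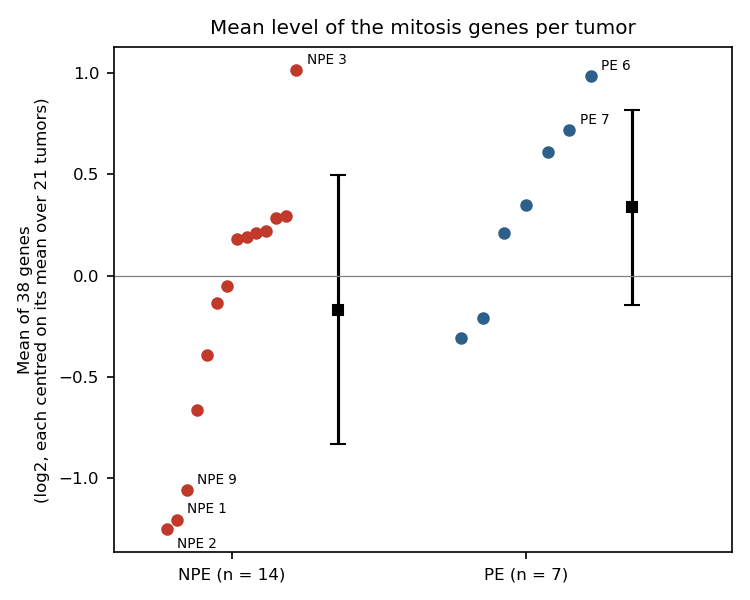
Mean of the 38 mitosis genes in each tumor (y axis, log2, each gene centred on its mean over the 21 tumors) for 14 NPE and 7 PE tumors (x axis); each circle is a tumor and the squares with bars are group means ± SD. NPE tumors 2, 1 and 9 lie below -1 and NPE tumor 3 lies at 1.01, while the PE tumors lie between -0.31 and 0.99.

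Single genes followed the same order of tumors. NPE tumor 1 or 2 had the lowest signal for 32 of the 38 members, and NPE tumors 1, 2 and 9 together for 35. NPE tumor 3 had the highest signal for 19 members and PE tumors 6 or 7 for 15. In NPE tumor 3 and in PE tumors 6 and 7 all 38 members were above their own mean, and in NPE tumors 2, 6 and 9 none was. The SD was larger among NPE than among PE tumors for 30 of 38 members (78.9%), close to the 76.0% of all probe sets for which this was so. The median SD over all tumors was 0.67 for the members and 0.25 over all probe sets.

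**Figure D2:**
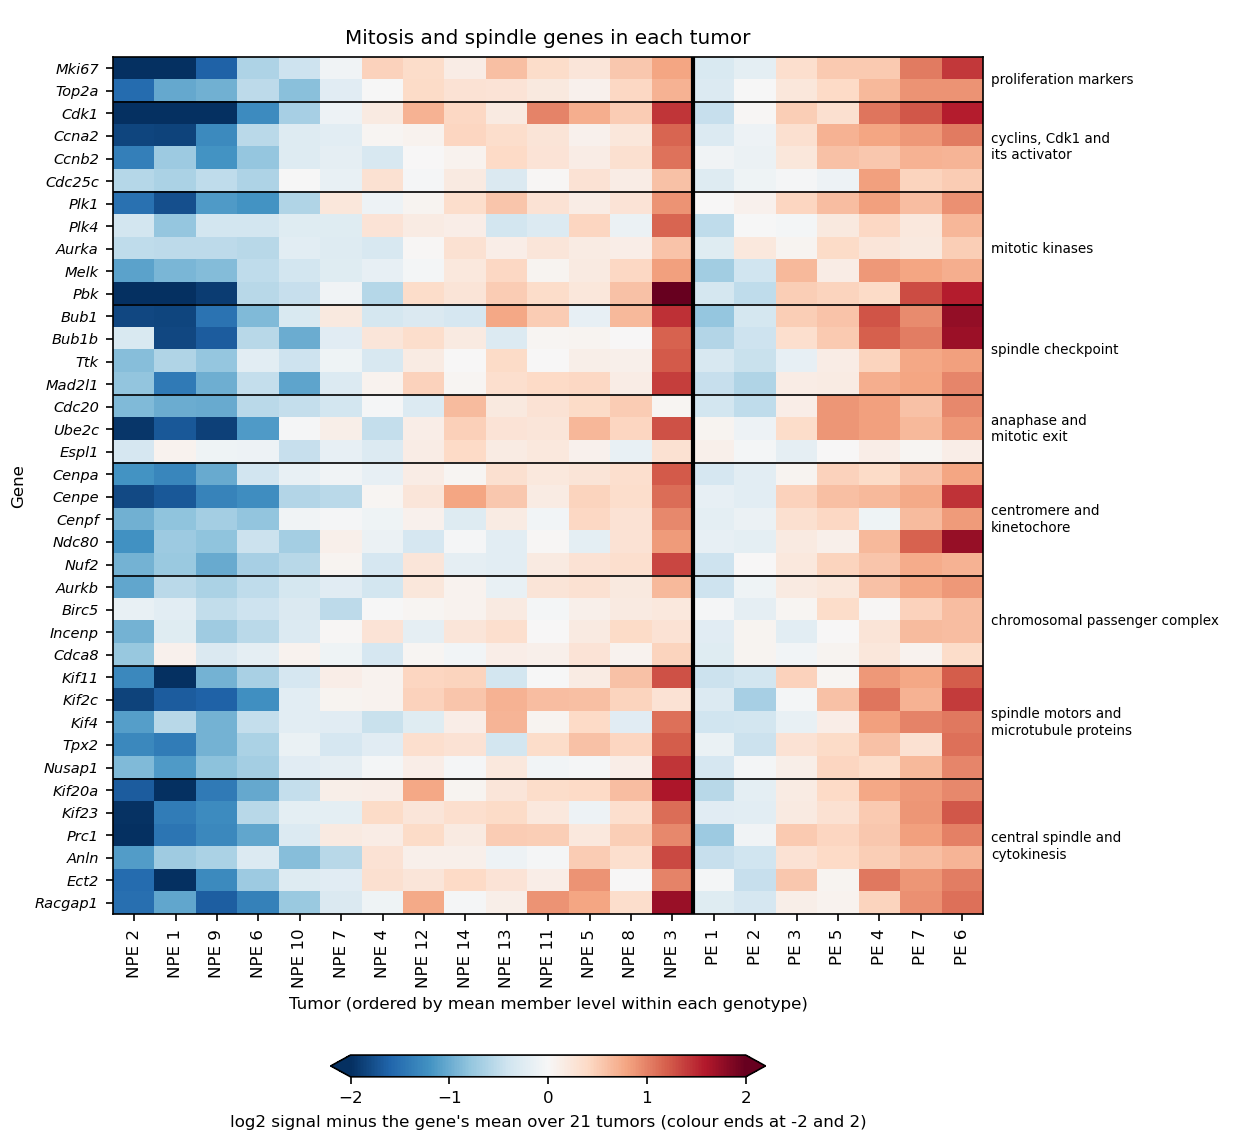
Log2 signal of each of the 38 members (rows, grouped by role) in each tumor (columns, NPE left and PE right of the thick line, ordered by their mean), shown as the difference from the gene's mean over 21 tumors with colour from -2 to 2. Nearly all rows shade from blue to red in the same tumor order, while Espl1, Cdca8 and Birc5 vary little.

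In NPE tumors all 38 members had a lower mean than in PE tumors, and none passed the test. The log2 fold changes ran from -0.91 (Cdk1) to -0.038 (Espl1), with a median of -0.50, where the median over all 22206 probe sets was -0.00054. A lower mean in NPE was found for 50.2% of all probe sets, and a log2 fold change of -0.5 or less for 19 of 38 members against 1.29% of all probe sets. With limma and Benjamini-Hochberg adjustment over all 22206 probe sets, 0 of the 38 members were called at 0.05, as were 0.00901% of all probe sets, and the adjusted p of the members ran from 0.513 to 0.949. At an unadjusted p under 0.05, 10 members passed, all lower in NPE (26.3%), against 4.36% of probe sets lower in NPE at that level. Because the members correlated at a median r of 0.85, these counts are close to a single observation repeated, and they say no more than the levels of the tumors above. Gene by gene, a 2-sided exact permutation test that drew every one of the 116280 ways to split the tumors gave an unadjusted p under 0.05 for 6 of 38 members, all lower in NPE (the same test gave this for 4.59% of all probe sets).

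**Figure D3:**
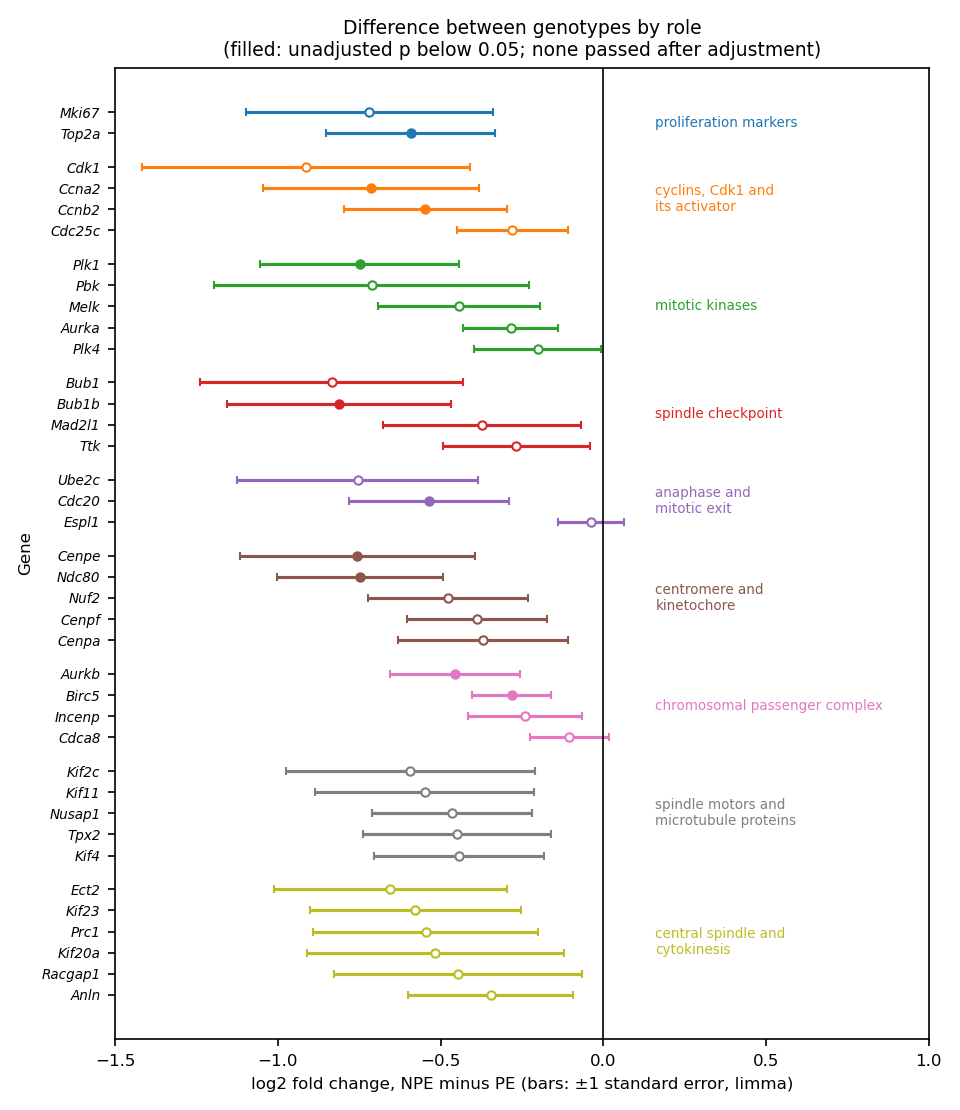
Log2 fold change between NPE and PE tumors (x axis, NPE minus PE) for each of the 38 members (y axis), coloured by role, with bars of ±1 standard error from limma; filled points have an unadjusted p under 0.05. All points lie below 0, from -0.91 for Cdk1 to -0.038 for Espl1, and none passed after adjustment.

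Mki67, the gene of the Ki-67 protein that coats mitotic chromosomes and marks cycling cells, ran from 5.49 through a median of 7.86 to 8.44 in NPE tumors and from 7.36 through 8.19 to 9.07 in PE tumors. Here 5 NPE tumors lay below every PE tumor and the other 9 lay within the PE range. Its log2 fold change was -0.72 (standard error 0.38, limma adjusted p = 0.624, exact permutation p = 0.0959). Top2a, topoisomerase II alpha, untangles sister DNA before anaphase. It ran from 5.00 through 6.58 to 7.23 in NPE and from 6.26 through 6.93 to 7.43 in PE tumors, with 5 NPE tumors below every PE tumor, a log2 fold change of -0.59 (standard error 0.26, limma adjusted p = 0.550) and an exact permutation p of 0.0482.

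The kinase at the center of mitotic entry, Cdk1, had the widest difference of all members. It ran from 3.11 through 5.96 to 7.20 in NPE tumors and from 5.30 through 6.27 to 7.35 in PE tumors. The NPE tumors 1 (3.11), 2 (3.30) and 9 (3.52) lay far below the rest, and the medians of the groups differed by less than the means. The arrays of these NPE tumors had background medians of 3.07, 2.72 and 2.64, so the low values were near the floor. Cdk1 was more than 1 log2 unit above its array's background median in 18 of 21 tumors, but not in these. The log2 fold change was -0.91 (standard error 0.50, limma adjusted p = 0.634, exact permutation p = 0.113). Ccnb2, cyclin B2, a partner of Cdk1, ran from 5.48 through 6.76 to 7.92 in NPE and from 6.72 through 7.38 to 7.54 in PE tumors. In 7 of 14 NPE tumors it lay below every PE tumor, and in NPE tumor 3 above every one, with a log2 fold change of -0.55 (standard error 0.25, limma adjusted p = 0.568, exact permutation p = 0.0566). Ccna2, cyclin A2, which acts in S phase and G2, differed by -0.71 on the log2 scale (standard error 0.33). Cdc25c, the phosphatase that activates Cdk1, was dim, more than 1 log2 unit above its array's background median in 2 of 21 tumors, and had a log2 fold change of -0.28.

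Among the mitotic kinases, Plk1, which drives centrosome maturation and mitotic exit, ran from 4.79 through 6.65 to 7.45 in NPE and from 6.56 through 7.16 to 7.47 in PE tumors. The PE tumors were close to each other (SD 0.35) and the NPE tumors spread wide (SD 0.83), with 6 NPE tumors below every PE tumor and 13 below the PE median. Its log2 fold change was -0.75 (standard error 0.31, limma adjusted p = 0.535, exact permutation p = 0.0338). Aurka, the Aurora A kinase of the spindle poles, ran from 4.87 through 5.32 to 5.98 in NPE and from 5.18 through 5.62 to 5.91 in PE tumors. Its log2 fold change of -0.28 (standard error 0.15, limma adjusted p = 0.616, exact permutation p = 0.0771) was smaller, as was its whole spread over the tumors (SD 0.35). Pbk had a log2 fold change of -0.71, Melk of -0.44 and Plk4, the kinase that starts centriole duplication, of -0.20. Melk and Plk4 were dim, more than 1 log2 unit above background in 7 and 3 of the 21 tumors.

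The spindle checkpoint holds anaphase until every chromosome is attached. Bub1b, which encodes the checkpoint protein BubR1, ran from 3.01 through 4.71 to 6.01 in NPE tumors and from 4.24 through 5.36 to 6.53 in PE tumors. Only 3 NPE tumors lay below every PE tumor, but 13 lay below the PE median, and the log2 fold change was -0.81 (standard error 0.34, limma adjusted p = 0.540, exact permutation p = 0.0426). Bub1, a kinase of the same checkpoint, ran from 2.85 through 4.39 to 6.14 in NPE and from 3.92 through 5.26 to 6.44 in PE tumors. Its log2 fold change was -0.83 (standard error 0.40, limma adjusted p = 0.593, exact permutation p = 0.0729). Mad2l1, which encodes the Cdc20 inhibitor Mad2, and Ttk, the kinase Mps1 that recruits the checkpoint, had log2 fold changes of -0.37 and -0.27.

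Anaphase starts when Cdc20 switches on the anaphase-promoting complex (APC/C), with Ube2c as its ubiquitin-conjugating enzyme. Cdc20 ran from 3.74 through 4.60 to 5.38 in NPE and from 4.24 through 5.33 to 5.70 in PE tumors, with a log2 fold change of -0.54 (standard error 0.25, limma adjusted p = 0.568, exact permutation p = 0.0579). NPE tumor 3, highest for 19 other members, lay close to the mean of all tumors for Cdc20. Ube2c ran from 5.28 through 7.36 to 8.50 in NPE and from 7.12 through 7.88 to 8.10 in PE tumors, with a log2 fold change of -0.76 (standard error 0.37, limma adjusted p = 0.597, exact permutation p = 0.0768). Espl1, separase, cuts the cohesin that holds sister chromatids. It ran from 4.70 through 5.15 to 5.55 in NPE and from 4.97 through 5.19 to 5.28 in PE tumors and had the smallest log2 fold change, -0.038 (standard error 0.10), although its promoter holds both elements.

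Of the kinetochore genes, Ndc80, a subunit of the complex that grips microtubules, had the smallest p of all members. It ran from 3.35 through 4.36 to 5.41 in NPE and from 4.36 through 4.74 to 6.31 in PE tumors. Here 7 of 14 NPE tumors lay below every PE tumor, and PE tumors 6 (6.31) and 7 (5.74) lay above every NPE tumor. The log2 fold change was -0.75 (standard error 0.25, limma adjusted p = 0.513, exact permutation p = 0.0119). Cenpe, the kinetochore motor that carries chromosomes to the metaphase plate, ran from 3.10 through 5.01 to 6.02 in NPE and from 4.70 through 5.51 to 6.35 in PE tumors, with 6 NPE tumors below every PE tumor. Its log2 fold change was -0.76 (standard error 0.36, limma adjusted p = 0.588, exact permutation p = 0.0706). Nuf2, the partner of Ndc80, had a log2 fold change of -0.48, Cenpf of -0.39 and Cenpa of -0.37.

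The chromosomal passenger complex corrects faulty attachments, and the mean over its genes had the smallest SD of the role means in both genotypes. Aurkb, its Aurora B kinase, ran from 4.84 through 5.68 to 6.52 in NPE and from 5.46 through 6.10 to 6.74 in PE tumors, with a log2 fold change of -0.46 (standard error 0.20, limma adjusted p = 0.550, exact permutation p = 0.0457). Birc5, survivin, ran from 6.23 through 6.72 to 6.96 in NPE and from 6.56 through 6.79 to 7.36 in PE tumors. Its lowest value was in NPE tumor 7 and not in NPE tumors 1 and 2 (6.54 and 6.59), and its log2 fold change was -0.28 (standard error 0.12, limma adjusted p = 0.540, exact permutation p = 0.0344). Incenp, the scaffold of the complex, had a log2 fold change of -0.24 and Cdca8, borealin, of -0.10. The mean over the 4 genes was -0.09 ± 0.31 (SD, n = 14) in NPE and 0.18 ± 0.30 (SD, n = 7) in PE tumors.

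None of the 5 motor and microtubule genes had an unadjusted p under 0.05. Kif2c, a kinesin that takes microtubules apart, ran from 3.22 through 5.26 to 5.77 in NPE and from 4.41 through 5.65 to 6.47 in PE tumors, with a log2 fold change of -0.59 (standard error 0.38, limma adjusted p = 0.695, exact permutation p = 0.169). Nusap1, which bundles spindle microtubules, ran from 4.67 through 5.76 to 7.24 in NPE and from 5.47 through 6.17 to 6.79 in PE tumors, with a log2 fold change of -0.47 (standard error 0.25, limma adjusted p = 0.624, exact permutation p = 0.0958). Kif11, the motor that pushes the spindle poles apart, had a log2 fold change of -0.55, and Tpx2, the activator of Aurora A, of -0.45. Kif4, a chromosome motor, had -0.44 and was dim, more than 1 log2 unit above background in 11 of 21 tumors.

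The central spindle and cytokinesis genes likewise had 0 of 6 members with an unadjusted p under 0.05. Ect2, which activates RhoA at the cleavage furrow, ran from 3.02 through 5.37 to 6.29 in NPE and from 4.84 through 5.84 to 6.36 in PE tumors, with 4 NPE tumors below every PE tumor. Its log2 fold change was -0.65 (standard error 0.36, limma adjusted p = 0.634, exact permutation p = 0.109). Kif23 and Racgap1, which form the centralspindlin complex, had log2 fold changes of -0.58 and -0.45. Prc1, the bundler of the midzone, had -0.55, Kif20a, a midzone motor, -0.52, and Anln, the anillin of the contractile ring, -0.35.

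The genes that surround the members in the cycle lay on the same side, and none passed the test. Over all probe sets, 50.2% were lower in NPE and 4.36% were so at an unadjusted p under 0.05, the shares to read beside each count. Of 36 measured other kinetochore and centromere genes, 36 had a lower mean in NPE tumors, 10 of them at an unadjusted p under 0.05, with a median log2 fold change of -0.25. Those with the smallest p were Sgo2a (-0.48), a guardian of centromere cohesion, Hjurp (-0.45), the chaperone of Cenpa, and Cenpt (-0.28). Of 34 other spindle, motor and cytokinesis genes, 33 were lower and 1 higher, 8 of them lower at an unadjusted p under 0.05, with a median of -0.33. Kif22 (-0.59), Tacc3 (-0.41) and Stil (-0.72), a centriole gene, had the smallest p, and Kif22 had an adjusted p of 0.477. Of 14 condensin and mitotic chromosome genes, 13 were lower and 4 had an unadjusted p under 0.05, with a median of -0.36, led by Ncapd3 (-0.28), Smc2 (-0.46) and Ncaph (-0.56). Of 23 other G2 regulators and APC/C genes, 21 were lower and 8 had an unadjusted p under 0.05, with a median of -0.21, led by Bora (-0.47), Cdc25a (-0.22) and Cdc25b (-0.44).

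Genes of DNA replication and of cell cycle control were counted in the same way. All 43 measured DNA replication and S-phase genes had a lower mean in NPE tumors, 12 of them at an unadjusted p under 0.05, with a median log2 fold change of -0.29. Pole, the leading strand polymerase, had the smallest p among them (-0.60, standard error 0.17, limma adjusted p = 0.431), followed by Uhrf1 (-0.50) and Gins2 (-0.33). Of 21 MuvB, B-Myb and E2F regulators, 18 were lower and 3 higher, with a median of -0.17. E2f8, a repressor E2F, had the widest difference (-1.07), and E2f3 (-0.33) and Mybl2 (-0.42), which encodes B-Myb, had the other small p. The last list held CDK inhibitors and cell cycle exit genes, and also Ccnd2, Ccnd3, Cdk4 and Cdk6, which are neither. Of its 19 measured genes, 13 were lower and 6 higher, with a median of -0.11. Those with the smallest p were Ccnd2 (0.60), cyclin D2, Ccnd3 (-0.48), cyclin D3, and Ccng2 (-0.28). At an unadjusted p under 0.05, 4 of the regulators were lower, and of this last, mixed list 2 were lower and 3 higher.

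**Figure D4:**
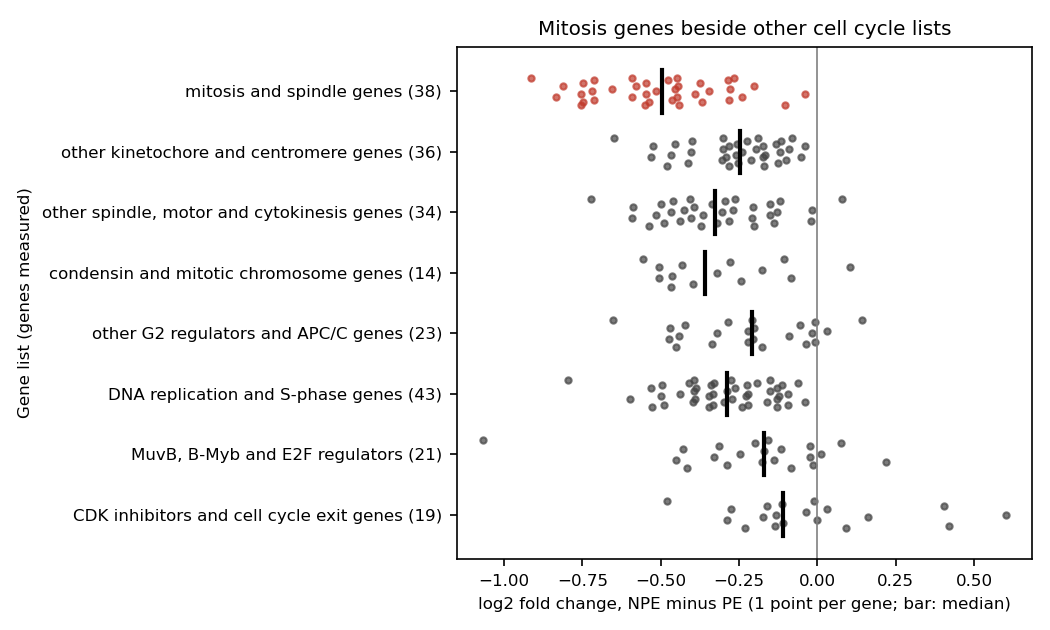
Log2 fold change between NPE and PE tumors (x axis) of every measured gene of the mitosis set (red) and of 7 further cell cycle lists (grey), with 1 point per gene, the median as a bar and the number of genes in brackets. The medians run from -0.50 for the mitosis genes to -0.11 for the CDK inhibitors and cell cycle exit genes, a list that also holds Ccnd2, Ccnd3, Cdk4 and Cdk6.

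Per tumor, the mean of the replication and S-phase genes followed that of the members closely (r = 0.96, rho = 0.90, n = 21), as did those of the other kinetochore genes (r = 0.96), the other spindle genes (r = 0.98) and the condensin genes (r = 0.98). The MuvB and E2F regulators followed less closely (r = 0.76, and 0.64 without NPE 1 and PE 6). Within NPE tumors without NPE 1 and 2, their r was 0.27. The list of CDK inhibitors and exit genes, which also holds Ccnd2, Ccnd3, Cdk4 and Cdk6, had an r of 0.36. That r was 0.51 within NPE and -0.37 within PE tumors. By single genes outside the 38, the 15 most like the mean of the members over the 21 tumors had r between 0.96 and 0.97. Of these, 11 were histone genes, H3c14, H3c15, H3c13, H3c6, H3c7, H1f1, H2ax, H3c8, H2bc3, H2ac10 and H2bc14, most of which are made in S phase. H3c14 and H3c15 are near-identical copies and had identical values, so histone genes of such families are uncertain as single genes. The others were Kif15, a spindle kinesin, Mcm6, a subunit of the replicative helicase, Hmmr, a spindle protein, and Cip2a, an inhibitor of the phosphatase PP2A. The 5 genes with the lowest r were Cpeb1 (-0.90), Abcb4 (-0.89), Cidea (-0.89), Ppm1a (-0.88) and Slc9a2 (-0.87). Cpeb1 binds the 3′ ends of mRNAs, Abcb4 is a phospholipid transporter and Cidea is a lipid droplet protein.

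Markers of adult muscle fibres and of adipocytes ran against the members, the adipocyte markers less steadily. The paper describes mature myocytes and myofibers as features of both tumor types. Whether the fibre markers came from tumor cells or from other tissue was not tested. The mean of 28 adult skeletal muscle fibre markers (26 of them above background by more than 1 log2 unit in every tumor) ran from -2.15 to 1.40 in NPE and from -1.33 to 0.20 in PE tumors, and its correlation with the mean of the members was -0.82 (rho = -0.80, n = 21). Without the 2 tumors farthest from its median, NPE 3 and PE 6, r was -0.78, and within NPE tumors it was -0.83. The titles of the tumors end in a number, and by its range r was -0.91 in numbers 1 to 10 (8 tumors), -0.49 in 18 to 23 (6 tumors) and -0.84 in 28 to 35 (7 tumors). The fibre markers with the smallest p between genotypes were Xirp2 (1.61), Actn3 (1.18) and Ckm (1.09), at an adjusted p of 0.431 or more, and 21 of 28 were higher in NPE tumors. The members and the fibre markers thus lay at opposite ends in the same tumors. NPE tumor 3 had the lowest fibre markers and the highest mitosis genes, and NPE tumor 1 the highest fibre markers and the mitosis genes next to lowest.

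The mean of 17 adipocyte markers (12 of them above background in every tumor) ran from -0.77 to 2.80 in NPE and from -1.17 to 0.18 in PE tumors, and all 17 had a higher mean in NPE. Pparg (1.19), Slc2a4 (0.59) and Fabp4 (1.26) had the smallest p. Its correlation with the members was -0.67 (rho = -0.47) over the 21 tumors and -0.31 without NPE tumors 1 and 2, which had by far the most adipocyte signal (2.80 and 2.59). Within NPE tumors r was -0.64, and -0.10 without NPE tumors 1 and 2. NPE tumor 9, almost as low in the mitosis genes, had adipocyte markers at -0.40 and fibre markers at 0.51. By title number range the adipocyte r was -0.66, -0.0013 and -0.78, the last over 7 tumors that include neither NPE 1 nor NPE 2, so it depended on which tumors were taken.

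**Figure D5:**
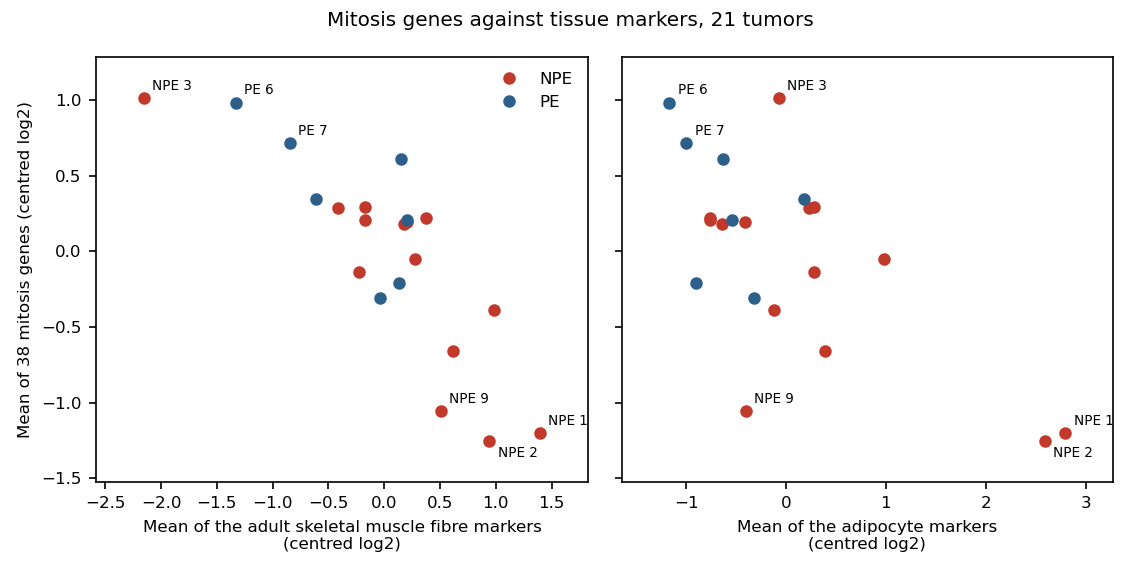
Mean of the 38 mitosis genes (y axis, centred log2) against the mean of the adult skeletal muscle fibre markers (left x axis) and of the adipocyte markers (right x axis) in 14 NPE and 7 PE tumors, 1 point per tumor. The left panel falls from NPE 3 and PE 6 to NPE 1 (r = -0.82), and in the right panel NPE tumors 1 and 2 lie far to the right of all others (r = -0.67, and -0.31 without them).

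For the remaining markers, r with the members is given over all 21 tumors and then without the 2 tumors farthest from each list's median. Macrophage and neutrophil markers (16 genes, -0.68 to 1.29 in NPE and -0.56 to 0.39 in PE) had an r of 0.59 (rho = 0.59), and 0.39 without NPE tumors 1 and 3. Erythroid and marrow markers (5 genes, -0.28 to 0.74 and -0.25 to 0.39) had 0.58 (rho = 0.54), and 0.36 without NPE 3 and PE 6. Lymphocyte markers (15 genes, -0.50 to 1.09 and -0.50 to 0.37) had -0.51 (rho = -0.41), and -0.37 without NPE tumors 2 and 4. After leaving 2 tumors out, these lists were thus no farther from 0 than the fibre markers and no closer to 0 than the adipocyte markers. Endothelial markers (9 genes, -0.82 to 1.03 and -0.78 to 0.15) had -0.14, and -0.45 without NPE tumors 3 and 11. Fibroblast and matrix markers (11 genes, -0.97 to 0.25 and -0.36 to 0.37) had 0.30, and -0.0061 without NPE 1 and PE 3. Myogenic and embryonic muscle markers (20 genes, -2.55 to 0.71 and -0.14 to 0.48) had -0.14, and 0.088 without NPE tumors 1 and 3, and keratinocyte markers (10 genes, -0.23 to 0.07 and -0.09 to 0.15) had -0.16, and 0.0016 without NPE tumors 3 and 4. The part of any of these cell types, fibres and adipocytes included, in the difference between genotypes was not tested.

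The difference between genotypes shrank when the fibre and adipocyte markers entered the fit. Both lists correlated with the members and were mostly higher in NPE tumors, so this fit cannot tell why it shrank, and the cause was not tested. With the means of the fibre and adipocyte markers as covariates, the median log2 fold change of the members was -0.039, 24 of 38 were lower in NPE and 0 were called, against -0.50 and 38 without them. Without NPE tumors 1 and 2, left out after their values had been seen, the median was -0.32, all 38 were lower and 0 were called, with 2 at an unadjusted p under 0.05. Single tumors decided the count of 10 at an unadjusted p under 0.05, which ran from 2 without PE tumor 6 or 7 to 26 without NPE tumor 3, while 0 were called in each case and the median ran from -0.61 to -0.41.

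Genotype and title number were mixed unevenly. Numbers 1 to 10 held 8 NPE and no PE tumor, 18 to 23 held 1 NPE and 5 PE tumors, and 28 to 35 held 5 NPE and 2 PE tumors. What the number stands for is not given in the sources used here. In 28 to 35, all 5 NPE tumors (-0.14 to 0.29) had a lower mean of the members than both PE tumors (0.72 and 0.99), and the median log2 fold change was -0.72. There limma called 7 members, all lower, against 1.60% of all probe sets, and 33 had an unadjusted p under 0.05, against 8.47% lower at that level. Of the 7, Ndc80 (-1.47, adjusted p = 0.0226), Bub1b (-1.28, 0.0342) and Kif4 (-1.24, 0.0139) had the largest differences, and Kif4 was dim. The others were Ccna2 (-0.88, 0.0369), Ect2 (-0.86, 0.0464), Ttk (-0.82, 0.0399) and Nusap1 (-0.82, 0.0369). That comparison rested on PE tumors 6 and 7, on NPE tumors 11 and 12 and on NPE tumors 7 and 8, the pairs that resembled each other, and on NPE tumor 4. In 18 to 23 the median was -0.47, with 37 of 38 lower and 0 called, from a single NPE tumor, NPE 10 (-0.39), beside PE tumors between -0.31 and 0.61.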

How the data were processed

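The authors deposited RMA values on the log2 scale, in which the background is removed, all arrays are set to 1 distribution and probes are combined into probe sets. Affymetrix Expression Console 1.1 is named for this in the labels, and labels and methods name different labeling kits. The probe-level data were not used here. Of 28846 probe sets, 94 controls and 6546 with names starting in MG- were left out, which left 22206, of which 19572 had 1 gene symbol in the platform annotation. A gene was read from its probe set of highest mean over all tumors.

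Genotypes were compared with limma 3.58.1 (lmFit and eBayes) in R 4.3.3, 2-sided, with Benjamini-Hochberg adjustment over all 22206 probe sets at 0.05, after tests on simulated data. Exact permutation tests went through every split of the tumors in Python 3.11.15, and rank correlations (rho) used scipy 1.17.1. The number of arrays limits the precision, and p-values measure the spread between these tumors. They treat the tumors as independent, which the labels do not settle for the pairs that resembled each other. The members and lists were chosen with earlier results of these data known. Named in full were, in each role, the member with the smallest p and that with the largest difference, and Mki67, Top2a, Plk1, Cdk1, Aurka, Aurkb and Birc5, and Espl1 was added after its values were seen. In the other cell cycle and marker lists up to 3 genes with the smallest p were named, and the 15 most and 5 least like genes by Pearson r. The alternatives changed the test, weights, filter, normalization, blocks, covariates and tumors. Promoters came from RefSeq.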

Additional observations from a re-analysis of the deposited data

How the results depend on the processing

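The median log2 fold change of the members was -0.50 and below 0 under all alternatives, but it ran from -0.72 within title numbers 28 to 35 to -0.039, close to 0, with the fibre and adipocyte means as covariates. No member was called under any alternative except within title numbers 28 to 35, with 7 called and 33 at an unadjusted p under 0.05. That last count, 10 with all tumors, was 6 with the plain test of the methods and 20 with a replicate block. Averaging the resembling pairs NPE 7 and 8, NPE 11 and 12 and PE 6 and 7, but not NPE 1 and 2, gave 2. The count was 1 with the covariates and 2 without NPE tumors 1 and 2, an alternative added after the data were seen. Leaving out 1 tumor at a time gave 2 to 26, with all 38 lower and 0 called in each, and moved it by over 1.5 times without NPE tumors 1 (5), 2 (6), 3 (26), 6 (6) or 9 (5), or PE tumors 1 (17), 4 (3), 5 (5), 6 (2) or 7 (2). The covariates left 24 of 38 members lower. The sign then turned for Kif20a (0.19), Pbk (0.18), Racgap1 (0.13), Mad2l1 (0.11), Cenpa (0.10), Ttk (0.077), Prc1 (0.073), Espl1 (0.060), Kif11 (0.046), Cdca8 (0.045), Tpx2 (0.036), Kif2c (0.030), Plk4 (0.029) and Kif23 (0.0093), and within title numbers 18 to 23 for Cdca8 (0.063). The cause was not tested. The replicate block paired tumors 1 to 7 of both groups by number, with a median of -0.63 and 0 called. Deviations of same-numbered tumors correlated at -0.31 to 0.13, and 0 of 7 PE tumors were most like the NPE tumor of their number. Such likeness cannot show whether the numbers pair the tumors in some other way.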
